A study of Danio rerio with 2 samples.

Results

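Enzymes that break down amino acids were compared between a pool of swim-trained zebrafish larvae and a pool of control larvae. The set comprised 54 genes of 8 routes, chosen by a fixed list of symbols that was drawn up with earlier trained over control ratios of these arrays in view. The ratios below are therefore a description of the set, and no test was made on them. Probes were matched through the accession each probe carries, and gpt2l was matched as the older symbol of gpt. A probe was found for 46 of the 54 genes. Of these, 45 were measured, meaning that a probe was well above background in both dyes on both arrays, out of 11121 named genes measured in all.

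Both pools held whole wild-type larvae of the cross Wageningen wild type X Tubingen wildtype (Zod2) at 10 days after fertilisation. The trained larvae swam from day 5 to day 10 in sessions of 3 hours, and the labels say of the other larvae only that they were controls. All were taken at the end of the day. RNA of 10 fish was pooled for each condition, and the same 2 pools were put on 2 Agilent arrays with the dyes exchanged. Array 1 carried the trained pool in Cy5 (red) and array 2 carried it in Cy3 (green). The 2 arrays are a technical repeat, so there was no replicate of either condition, and neither a p-value nor a spread between fish could be given. In pooled whole larvae, more cells of a type and more RNA per cell cannot be told apart.

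Free amino acids that are not used for protein are stripped of their nitrogen, and their carbon is passed to the tricarboxylic acid cycle, to glucose or to ketone bodies. The liver is the main site for tryptophan, phenylalanine, tyrosine, methionine, glycine and histidine, whereas the branched-chain amino acids are broken down largely in muscle and other tissues outside the liver. Several of these liver enzymes, tryptophan dioxygenase and tyrosine aminotransferase among them, are classical targets of glucocorticoids in mammals. Roles given below are those known for the human enzymes.

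A ratio is the trained over control log2 ratio of the brightest measured probe of a gene, and signals are spot signals after background correction and normalization. No measured member was lower in the trained pool on both arrays. Higher on both arrays were 23 of 45 members, and the remaining 22 were opposite on the arrays. Among all measured genes 24.3% were higher on both arrays, 22.1% were lower on both, and 5957 of 11121 were opposite. The median ratio over the members was 0.24, at 0.21 on array 1 and 0.36 on array 2, against -0.003 over all measured genes. At least 1.5-fold higher on both arrays were 2 members, tdo2b and hgd, and 0 members were 1.5-fold lower. That rule was met by 0.638% of all measured genes for higher and by 0.054% for lower. At 1.3-fold the members numbered 11 higher and 0 lower, against 1.76% and 0.279% of all measured genes. The counts differed with the number of arrays asked to agree: on array 1 alone 8 members were at least 1.5-fold higher and on array 2 alone 7 were, beside 2.69% and 2.10% of all measured genes. At 1.3-fold these counts were 19 and 20, beside 8.09% and 7.89%. With the mean over all measured probes of a gene 1 member passed at 1.5-fold and 7 at 1.3-fold. Of all measured genes 0.495% and 1.601% did so. With median centring of the arrays 7 members passed at 1.3-fold and with the deposited ratios 8, beside 1.86% and 2.71% of all measured genes.

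**Figure D1:**
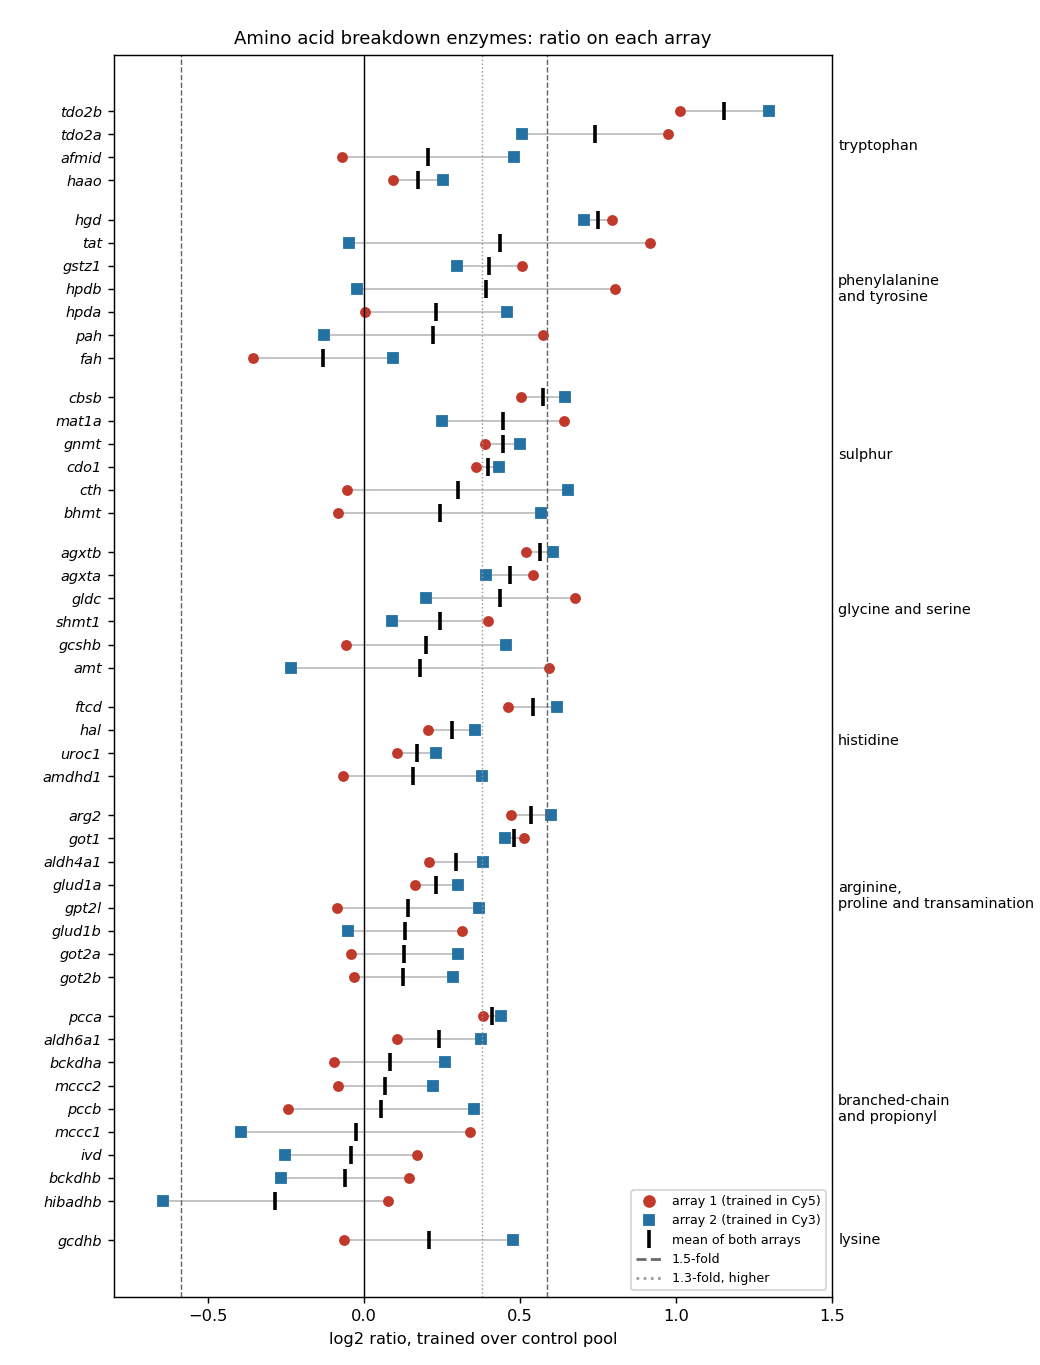
Log2 ratio of the trained over the control pool (horizontal axis) for the 45 measured members, grouped by route; circles are array 1, squares array 2 and bars the mean of both. The dashed lines mark 1.5-fold and the dotted line 1.3-fold higher; tdo2b and hgd lie beyond 1.5-fold on both arrays, and no member lies below 0 on both.

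In the tryptophan route the enzymes that open the indole ring stood highest. For tdo2b, a tryptophan dioxygenase, the signal was 354 in the trained and 176 in the control pool on array 1, and 412 and 168 on array 2. The ratios of 1.01 and 1.298 averaged 1.16, or 2.23-fold. Its paralog tdo2a had signals of 1143 trained and 582 control on array 1, and 878 and 617 on array 2. The ratios of tdo2a were 0.97 and 0.51, a mean of 0.74 or 1.67-fold. The lower of them kept it out of the 1.5-fold rule, which asks for a log2 ratio of 0.585 on each array. Each paralog was represented by 1 measured probe, and hybridisation of one paralog to the probe of the other was not tested. Further down the route the ratios were smaller. For afmid, the formamidase that yields kynurenine, they were -0.07 and 0.48, and for haao, which oxidises hydroxyanthranilate, 0.09 and 0.25. No probe was paired here with kmo or kynu, which act between these steps.

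Of the enzymes that take phenylalanine through tyrosine to fumarate and acetoacetate, hgd alone passed 1.3-fold on both arrays. It encodes homogentisate dioxygenase, which opens the aromatic ring. The hgd signal was 6634 in the trained and 3821 in the control pool on array 1, and 5699 and 3493 on array 2. The ratios were 0.80 and 0.71, a mean of 0.75 or 1.68-fold. A second probe of hgd gave 0.49 and 0.42. The isomerase gene gstz1, which acts on the ring-opened product, had ratios of 0.51 and 0.30. These were in the same direction and short of 1.3-fold on array 2.

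Enzymes acting before homogentisate differed between the arrays. Tyrosine aminotransferase (tat) had signals of 576 trained and 305 control on array 1, but 446 and 461 on array 2. The array 1 ratio of 0.92 was thus met by -0.05 with the dyes exchanged. The other 3 measured tat probes were higher on both arrays, with mean ratios between 0.23 and 0.44. Hydroxyphenylpyruvate dioxygenase, which makes homogentisate, is encoded by hpda and hpdb. The ratios were 0.003 and 0.46 for hpda, and 0.80 and -0.02 for hpdb. The paralogs thus stood high on different arrays, and the second probe of each was higher on both arrays, with means of 0.52 and 0.35. Phenylalanine hydroxylase (pah) gave 0.57 and -0.13. Fumarylacetoacetate hydrolase (fah), the last enzyme of the route, gave -0.36 and 0.09, and its 3 other probes had means from -0.17 to 0.02.

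All 6 sulphur amino acid genes had a mean ratio above 0, with a route median of 0.42, which was 0.27 with the mean over all measured probes of a gene and 0.31 with the deposited ratios. The signal of cbsb, the cystathionine synthase that commits homocysteine to cysteine, was 2784 trained and 1965 control on array 1, and 2467 and 1577 on array 2. Of 3 cbsb probes only 1 was measured, and the others were not well above background in every channel. The cbsb ratios were 0.50 and 0.65, a mean of 1.49-fold. Glycine methyltransferase (gnmt) disposes of methyl groups from excess S-adenosylmethionine. Its signal was 768 against 587 on array 1 and 773 against 546 on array 2, with ratios of 0.39 and 0.50. A second gnmt probe had a mean ratio of 0.38. Cysteine dioxygenase (cdo1), which starts the oxidation of cysteine, gave 0.36 and 0.43, just short of 1.3-fold on array 1, and its second probe had a mean ratio of 0.15. For mat1a, the adenosyltransferase that activates methionine in liver, the ratios were 0.64 and 0.25, and a second probe stood at 0.09. Cystathionine lyase (cth) and betaine-homocysteine methyltransferase (bhmt) were higher on array 2, at 0.66 and 0.57, and near 0 on array 1, at -0.06 and -0.08.

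**Figure D2:**
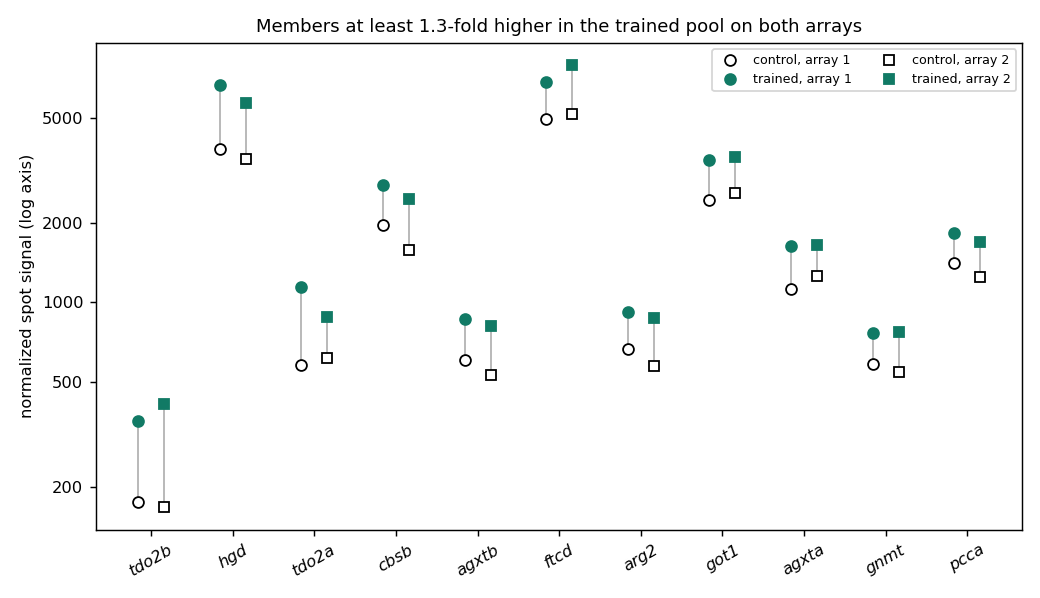
Normalized spot signal (vertical log axis) of the 11 members at least 1.3-fold higher in the trained pool on both arrays, with open symbols for the control pool, filled for the trained pool, circles for array 1 and squares for array 2. Each filled symbol lies above its open partner, from tdo2b at a mean of 2.23-fold to pcca at 1.33-fold.

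Among the glycine and serine genes, the aminotransferases that turn glyoxylate into glycine passed 1.3-fold on both arrays. The signal of agxtb was 866 in the trained and 604 in the control pool on array 1, and 811 and 532 on array 2. That of agxta was 1633 and 1122 on array 1, and 1645 and 1254 on array 2. The ratios were 0.52 and 0.61 for agxtb, a mean of 1.48-fold. For agxta they were 0.54 and 0.39, a mean of 1.38-fold, and a second agxta probe was opposite on the arrays, at 0.65 and -0.11. The glycine cleavage system, which releases carbon dioxide and ammonia from glycine, was represented by 3 subunits. Its decarboxylase gldc had ratios of 0.68 and 0.20, with 3 other probes at means from 0.10 to 0.17. The gldc probe with the lowest mean was opposite on the arrays, at 0.59 and -0.39. The aminomethyltransferase amt gave 0.59 and -0.23, and the lipoyl carrier gcshb -0.06 and 0.46. Second probes of amt and gcshb were higher on both arrays, at 0.14 and 0.22 for amt and at 0.60 and 0.19 for gcshb. Cytosolic serine hydroxymethyltransferase (shmt1), which interconverts serine and glycine, gave 0.40 and 0.09. No probe was paired here with sardh, dmgdh, sds or sdsl.

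Histidine is broken down by hal, uroc1, amdhd1 and ftcd in that order. The last of them, ftcd, hands the formimino group to folate. Its signal was 6797 trained and 4932 control on array 1, and 7920 and 5156 on array 2. Ratios of 0.46 and 0.62 gave a mean of 1.45-fold. The lyase hal, which removes ammonia from histidine, had 0.21 and 0.36, and urocanase (uroc1) 0.11 and 0.23. The imidazolonepropionase amdhd1 gave -0.07 and 0.38. Control signals of hal, uroc1 and amdhd1 were low, between 96.5 and 239, which includes the constant of 50 added at background correction. That constant draws ratios of dim probes towards 0. Over the 8 alternative processings applied to both arrays the mean ratio of hal ran from 0.21 to 0.49 and that of uroc1 from 0.16 to 0.48.

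Genes of arginine, proline and transamination included a pair past 1.3-fold. Mitochondrial arginase (arg2), which splits arginine into urea and ornithine, had signals of 920 trained and 664 control on array 1, and 874 and 577 on array 2. Its ratios were 0.47 and 0.60, a mean of 1.45-fold. Cytosolic aspartate aminotransferase (got1) had signals of 3469 and 2431 on array 1, and 3540 and 2588 on array 2. The got1 ratios were 0.51 and 0.45, but its 2 other probes stood at means of 0.12 and 0.15. The former of these was opposite on the arrays, at -0.18 and 0.43. The mitochondrial counterparts got2a and got2b had mean ratios of 0.13 and 0.13 and were opposite on the arrays. Glutamate dehydrogenase, which frees ammonia from glutamate, had 0.16 and 0.30 for glud1a and 0.31 and -0.05 for glud1b. The proline route dehydrogenase aldh4a1 gave 0.21 and 0.38. Alanine aminotransferase (gpt2l) gave -0.09 and 0.37, while its 3 other measured probes were higher on both arrays, with means from 0.11 to 0.31. No probe was paired here with oat or prodha.

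The branched-chain and propionyl genes had a median ratio of 0.05 over 9 measured genes, at 0.11 on array 1 and 0.22 on array 2. Of these, 7 were opposite on the arrays. The exceptions were pcca, a subunit of propionyl-CoA carboxylase, and aldh6a1, the valine and thymine route dehydrogenase. The pcca signal was 1837 in the trained and 1410 in the control pool on array 1, and 1687 and 1244 on array 2. The ratios were 0.38 and 0.44, a mean of 1.33-fold, while 2 other pcca probes stood at means of 0.08 and 0.09. These probes were opposite on the arrays, at -0.07 and 0.22 and at 0.33 and -0.14. The partner subunit pccb gave -0.24 and 0.35. For aldh6a1 the ratios were 0.11 and 0.37. Subunits of the branched-chain ketoacid dehydrogenase, which makes the irreversible step of the route, had mean ratios of 0.08 for bckdha and -0.06 for bckdhb. The leucine route genes ivd, mccc1 and mccc2 stood at -0.04, -0.03 and 0.07. The lowest mean ratio of the set was that of hibadhb, of the valine route, at 0.08 on array 1 and -0.65 on array 2, with a mean of -0.28. For lysine, gcdhb (glutaryl-CoA dehydrogenase) gave -0.06 and 0.48. The probe of aass was not well above background in the control pool on array 2 and is not counted as measured.

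**Figure D3:**
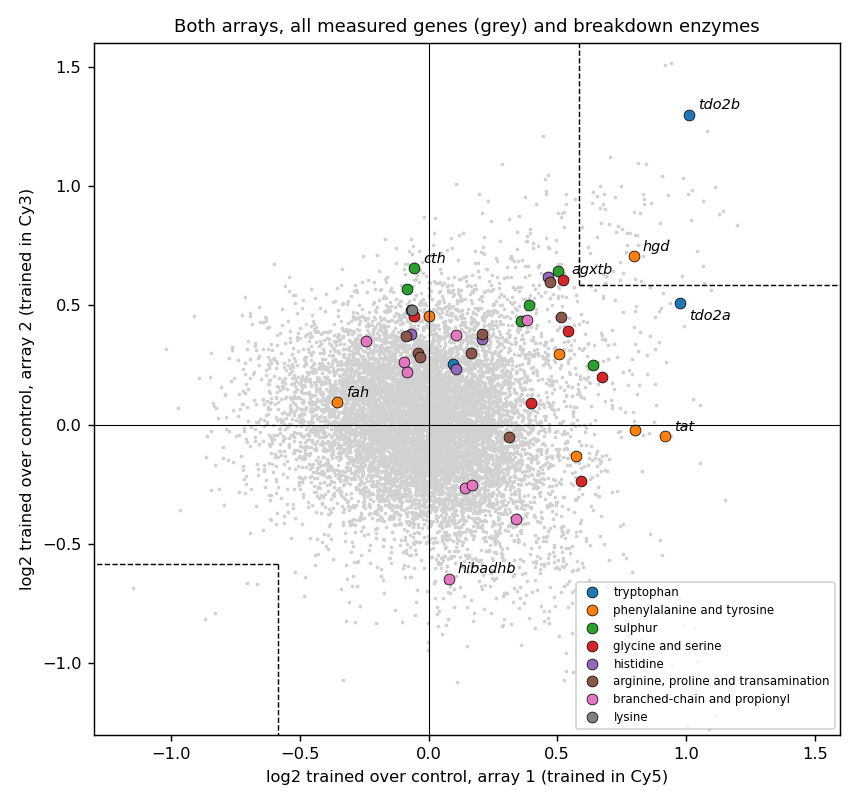
Log2 ratio of the trained over the control pool on array 1 (horizontal axis) against array 2 (vertical axis), with all 11121 measured genes in grey and the 45 members coloured by route. The dashed corners mark 1.5-fold on each array, both higher or both lower; tdo2b and hgd lie in the upper corner and no member lies in the lower left quadrant.

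The members agreed only in part between the arrays. The 22 opposite members were 48.9% of the 45 measured, and over all measured genes 5957 of 11121 were opposite. Of these 22 members 9 were higher on array 1 and 13 were higher on array 2. The component of a ratio that changes sign when the dyes are exchanged ran from -0.36 for cth to 0.48 for tat, with a median of -0.06. Its SD over all measured genes was 0.20, as large as the SD of 0.19 of the mean ratio. The SD between spots of a probe was 0.08 (20 probes). Mean ratios of the 11 members past 1.3-fold, from 0.41 for pcca to 1.16 for tdo2b, and of some others were larger than these SDs. As the set was drawn up with such ratios in view, this is no test, and these SDs do not measure the spread between fish. Members with a mean ratio nearer to 0 than the SD of that component included haao, at 0.17, got2a, at 0.13, and most of the branched-chain and propionyl genes. Over the 45 members, with 1 probe each, the correlation of array 1 with array 2 was 0.12 by Pearson and 0.06 by Spearman. Over all measured probes, where a gene can have several, it was -0.04 and -0.09. With the deposited ratios the Pearson value over all measured probes was 0.11. Genes on an array share the labelling and the slide and are not replicates. The direction of all ratios rests on the dyes named in the sample titles and channel labels. The deposited series values also turn the sign of the scanner ratio on array 2. The design text of the series, however, repeats a single orientation for both arrays. If both arrays had the same orientation, the pools' difference would lie in the component given above for the members.

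A second measured probe was present for 27 members. For 21 of them the mean ratios of all other probes had the sign of the brightest, which covers every member past 1.3-fold that had another probe, namely hgd, got1, agxta, gnmt and pcca. In these 5 the other probes were nearer to 0 than the brightest. The shared sign is that of the mean, and probes of a gene were read on the same arrays and pools. The share of all measured genes with such agreement is not given here. The other probes of pcca, that of agxta and a got1 probe were opposite on the arrays. The 6 members with an opposite probe were fah, got2a, glud1b, bckdhb, ivd and mccc1, with mean ratios between -0.13 and 0.13 on the brightest probe. Over all 90 measured probes of the members, 47 were higher on both arrays, 1 was lower on both and 42 were opposite. The lower probe belonged to glud1b, at -0.10 and -0.11. Of the 90 probes 52.2% were higher on both arrays, against 22.9% of all measured probes.

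**Figure D4:**
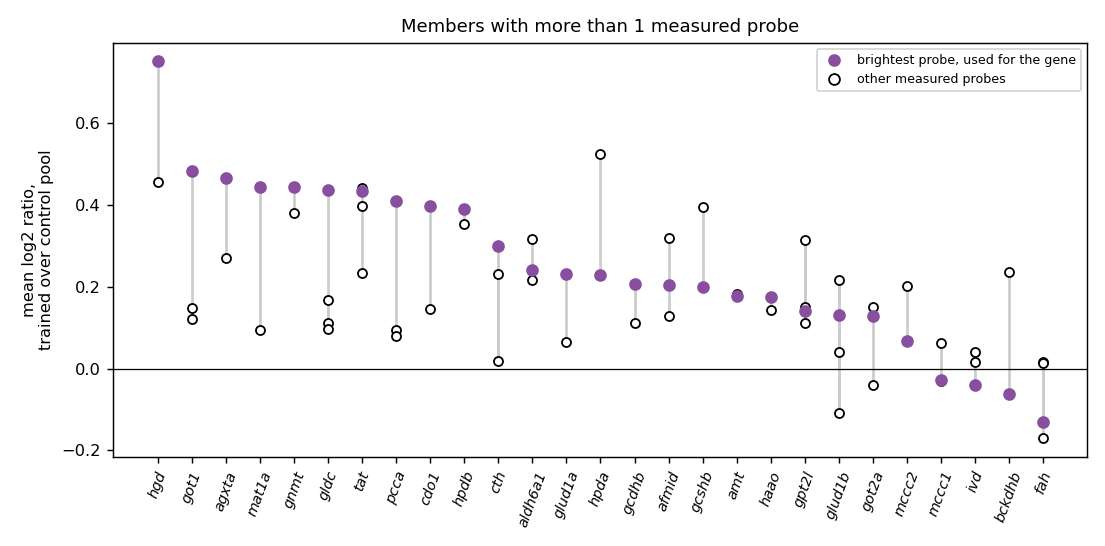
Mean log2 ratio of both arrays, trained over control pool (vertical axis), for each measured probe of the 27 members that had more than 1; filled circles are the brightest probe, which stands for the gene, and open circles the others. For hgd both probes lie above 0.45, and for got1 and pcca the other probes lie well below the brightest.

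Other genes of amino acid breakdown that are not in the set had a smaller median ratio than the members. Of 68 such genes 54 were measured, and 0 of these reached 1.3-fold in either direction on both arrays. The shares of all measured genes were 1.76% higher and 0.279% lower. Higher on both arrays were 23, lower on both 9 and opposite 22, with a median of 0.10, at -0.02 on array 1 and 0.14 on array 2. Thus 42.6% were higher on both arrays and 16.7% lower, against 24.3% and 22.1% of all measured genes. The values were already seen when the 5 genes named next were picked. The extremes were grhprb, a glyoxylate reductase, at 0.27 and 0.62, and the methionine synthase gene mtr at -0.52 and -0.19. In the tryptophan route acmsd, which diverts the pathway from quinolinate, had 0.37 and 0.28. The pterin enzymes pcbd1 and qdpra, which recycle the cofactor of pah, had mean ratios of 0.30 and 0.35. As the set was chosen with the ratios known, the difference between the set and these genes has no test.

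Markers of liver, where most of the routes are active, were set beside the enzymes. Of 25 liver markers 19 were measured, with a median ratio of 0.32. The trained pool was the higher in 12 and the lower in 2 of them by both arrays, and 5 were opposite. At least 1.3-fold higher on both arrays were 6 of these 19 markers and 6 of 15 measured intestine markers, and at least 1.5-fold higher were 2 and 3, beside 1.76% and 0.638% of all measured genes. The summed signal of the liver markers was 468262 in the trained and 359804 in the control pool on array 1, and 480373 and 389122 on array 2. The plasma protein gene ahsg1 had ratios of 1.01 and 0.97, and the liver fatty acid binding protein gene fabp10a 0.74 and -0.03. Lower on both were the plasma protein genes cp, at -0.16 and -0.21, and fga, at -0.11 and -0.07. The part of liver and intestine markers in the ratios of the breakdown enzymes was not tested. Intestine markers had a median of 0.30, with 8 of 15 higher on both arrays and 1 lower. Exocrine pancreas markers had a median of 0.16, at 0.32 on array 1 and -0.03 on array 2, with 4 of 11 higher and 1 lower. Kidney tubule markers stood at -0.04, with 2 of 9 higher and 4 lower. Fast muscle markers stood at -0.11, at 0.12 on array 1 and -0.18 on array 2, with 0 of 15 higher, 2 lower and 13 opposite. Summed signals of intestine markers ran from 158317 to 171858 in the trained and from 137209 to 137776 in the control pool. Those of exocrine pancreas markers were 448272 trained and 352105 control on array 1, and 400085 and 386372 on array 2. Summed over all measured genes, signals were 4.59e+07 trained and 4.12e+07 control on array 1, and 4.12e+07 and 4.55e+07 on array 2. The larger of these sums was thus that of the pool in Cy5 on each array. Summed signals of kidney tubule and of fast muscle markers overlapped between the pools.

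**Figure D5:**
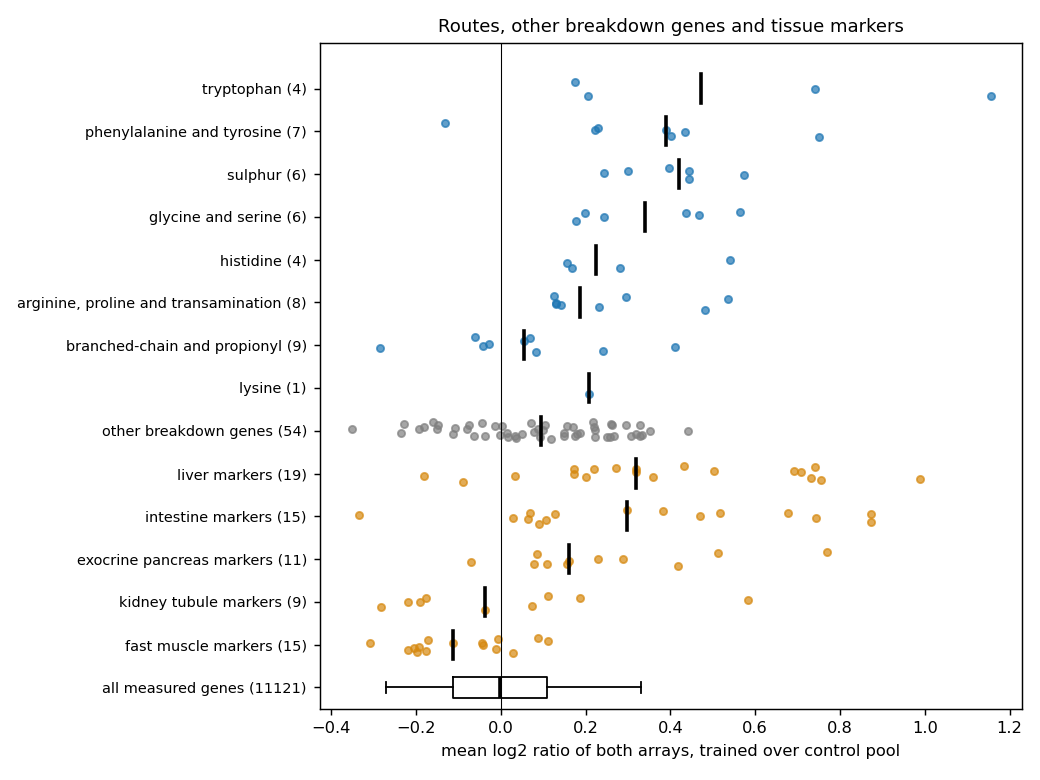
Mean log2 ratio of both arrays, trained over control pool (horizontal axis), for each measured gene of the routes (blue), other breakdown genes (grey) and tissue markers (orange), with the number of genes in parentheses; black bars are medians. The box shows the quartiles of all 11121 measured genes with whiskers to the 5th and 95th percentiles; the medians are 0.05 for the branched-chain genes, 0.47 for tryptophan and 0.32 for liver markers, and the order of the routes differs on each array alone.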

How the data were processed

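Per the labels, each of 10 fish gave 400 ng of RNA to its pool, and 100 ng of a pool was labelled with Cy3 or Cy5. Scans were read with Agilent Feature Extraction 10.5.1.1, a version taken from the submitters' processing notes. Per the file headers, the deposited scanner files hold median spot and background intensities of both dyes on a linear scale, flags (no measurement, another unit) and a log10 ratio of Cy5 over Cy3. The deposited series value table equals that log10 ratio on all spots within 1e-04, with the sign of array 2 turned. Its medians are 0 in both columns, and both are trained over control.

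Ratios were rebuilt with limma 3.58.1 in R 4.3.3 from the median intensities, with normexp background correction (offset 50) and loess within each array, control and outlier spots having weight 0. The sign of array 2 was turned. Spots of a probe and then the 2 arrays were averaged. Signals were also scaled between arrays by their average (Aquantile). Of 43603 probes 30886 (70.8%) were measured, 13 spots were left out for outlier flags, and 0 were saturated. Between 71.3% and 84.2% of spots per channel were well above background, and the number of arrays limits the precision. Both arrays came from the same slide and scan, per the file headers.

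Symbols came from matching unversioned accessions to a RefSeq gene table (assembly GRCz12tu), which gave a name to 25171 probes and none to 18429. Coordinates are not given, as the array's design used another build. Where a gene had several measured probes, the brightest stood for it. A gene was called when it was at least 1.5-fold higher or lower on both arrays, with 1.3-fold as a lower rule. The named genes were, by rule, all members past either threshold and their paralogs, with the others given by value or count. The members, routes, marker lists and rules were chosen with earlier results of these data known. The steps were also run on simulated arrays with known ratios and a noise chosen beforehand, and the outcome is not given here. Tables were made in Python 3.11.15 with numpy 2.4.6, pandas 2.3.3 and scipy 1.17.1. Alternatives were other background corrections and scalings, the deposited ratios, other filters and thresholds, each array alone and the mean over probes. The 1.3-fold count was added to these after seeing the data. Mean spot signals had been planned as an alternative and were not used here, since the files analysed give medians.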

Additional observations from a re-analysis of the deposited data

How the results depend on the processing

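The 11 members past 1.3-fold kept the sign of their ratio under all 8 alternatives run on both arrays, among them tdo2b between 1.14 and 1.66, hgd between 0.60 and 0.82 and tdo2a between 0.74 and 0.80. The series table repeated the deposited scanner ratio, and the settings with other filters left the values of these 11 unchanged. The 8 alternatives are therefore not all distinct. As the 11 were picked by their ratios on these arrays, the kept sign is no test. At 1.5-fold, 2 members were higher. The count was 1 with the mean over probes, where hgd fell short, 3 with median centring, 1 at 2-fold and 13 at 1.2-fold. In that order, 0.495%, 0.638%, 0.027% and 3.74% of all measured genes passed as higher. On array 1 alone 8 members were higher and 0 lower, beside 2.69% and 1.79% of all measured genes. On array 2 alone 7 members were higher and 1 lower, beside 2.10% and 2.08%. At 1.3-fold, 11 became 7 with median centring or the mean over probes, beside 1.86% and 1.601% of all measured genes. That count was 8 with the deposited ratios, 19 on array 1 and 20 on array 2, beside 2.71%, 8.09% and 7.89%. Members higher on both arrays were 23 in the main setting. They were 27 with the mean over probes, 29 with median centring and 33 with the deposited ratios. Beside these stood 25.7%, 24.4% and 25.1% of all measured genes. Lower on both arrays was 1 member with median centring and 1 with the deposited ratios, beside 12.6% and 26.0% of all measured genes. On a single array every measured gene was either higher or lower. On array 1 alone 32 members were higher and 13 lower, beside 49.7% and 50.3% of all measured genes. On array 2 alone the members numbered 36 and 9, beside 52.6% and 47.4%. The median of 0.24 was 0.36 on array 2 alone, and between 0.21 and 0.30 otherwise. The order of the route medians differed between the arrays: for phenylalanine and tyrosine the median was 0.57 on array 1 and 0.09 on array 2, for tryptophan 0.53 and 0.49, for sulphur 0.37 and 0.53, and for the branched-chain genes 0.11 and 0.22. The cause of these moves was not tested. The alternative with mean spot signals was not run. With 1 pool per condition, ranges show processing and not the spread between fish. Signal over background limits the precision of dim members such as uroc1, hal, haao and tdo2b. No paired analysis was possible because both arrays hold RNA of the same 2 pools and no test was made.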
